A study of Mus musculus with 15 samples.

Results

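The serum amyloid A genes Saa1, Saa2, Saa3 and Saa4 and 6 further genes of acute-phase proteins, Lcn2, Orm1, Orm2, Hp, Hpx and Apcs, were followed through 15 mouse liver libraries. These 10 genes were listed by name, out of 35540 gene symbols in the deposited table, and all 10 were among the 13916 genes that passed the filter on low counts. The list was drawn up with the values of the 3 groups and their spread known, so the levels, the spread and the group differences given here describe the members and support nothing further.

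Total liver RNA had been sequenced after 8 weeks of high-fat diet from 5 Txnip knockout (KO) libraries, 5 libraries of mice with the C247S change in TXNIP (C247S KI) and 5 wild-type (WT) libraries. TXNIP, the thioredoxin-interacting protein, binds thioredoxin through a disulfide bond and restrains glucose uptake, and C247S replaces a cysteine with a serine. All 3 groups shared the diet, so no library shows the genes on a standard diet. The sources used here give no age, sex or strain, and do not say whether the knockout was limited to a cell type or whether each library was 1 animal; p-values therefore measure the spread between these libraries, which may be technical.

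The acute-phase response is the change in the proteins that the liver releases into blood during inflammation, injury or infection. Cytokines, above all interleukin-6 and interleukin-1, reach hepatocytes, where STAT3, NF-kappaB and C/EBP factors raise the transcription of positive acute-phase genes while albumin and other negative ones go down. Saa1 and Saa2 encode apolipoproteins of high-density lipoprotein that are among the most inducible products of the mouse liver. Saa3 is also made in macrophages and fat tissue, and Saa4 is the constitutive member of the family.

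The library totals lay between 18047577 and 23379940 estimated counts, so counting error was small beside the spread between libraries except for the lowest genes. Txnip itself had 70.9 to 123 CPM (counts scaled to the library total) in KO, 99.9 to 280 CPM in C247S KI and 180 to 320 CPM in WT. The KO range lay below the WT range and met the C247S KI range through 1 library, C247S KI 3, at 99.9 CPM. A transcript estimate does not show whether the deleted part was read. The number that opens each sample title ran between 1176 and 1288 in KO, between 3082 and 3154 in C247S KI and between 3116 and 3121 in WT; what it numbers is not stated, and if it marks cohorts they cannot be told apart from the KO group.

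The 4 Saa genes lie close together on chromosome 7 (GRCm38). Saa1 spans chr7:46740497-46742980 on the minus strand, Saa2 chr7:46751790-46754313 on the plus strand, Saa3 chr7:46711998-46715700 and Saa4 chr7:46727998-46732603, both on the minus strand. Their start regions are shown because Saa1 and Saa2 varied nearly as 1 gene across the libraries, Saa3 followed them less closely and Saa4 stayed much flatter. Each window is RefSeq sequence (GRCm38.p6) of 300 bases, 250 before and 50 after the gene's start, in the direction of the gene, and capitals mark a match to the C/EBP motif TTNNGNAAT on either strand.
Saa1 (chr7:46742931-46743230, minus strand): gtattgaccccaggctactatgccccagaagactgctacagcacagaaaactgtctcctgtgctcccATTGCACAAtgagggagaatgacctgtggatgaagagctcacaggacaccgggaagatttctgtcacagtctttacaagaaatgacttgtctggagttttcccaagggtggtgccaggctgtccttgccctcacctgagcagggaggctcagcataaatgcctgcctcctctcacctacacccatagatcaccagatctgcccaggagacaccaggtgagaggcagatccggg
Saa2 (chr7:46751583-46751882, plus strand): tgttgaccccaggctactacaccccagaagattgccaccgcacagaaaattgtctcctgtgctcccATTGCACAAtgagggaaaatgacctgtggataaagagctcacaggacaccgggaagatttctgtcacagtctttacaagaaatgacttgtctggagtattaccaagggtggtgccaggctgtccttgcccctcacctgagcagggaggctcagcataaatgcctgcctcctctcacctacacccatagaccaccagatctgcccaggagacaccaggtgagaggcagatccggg
Saa3 (chr7:46715627-46715926, minus strand): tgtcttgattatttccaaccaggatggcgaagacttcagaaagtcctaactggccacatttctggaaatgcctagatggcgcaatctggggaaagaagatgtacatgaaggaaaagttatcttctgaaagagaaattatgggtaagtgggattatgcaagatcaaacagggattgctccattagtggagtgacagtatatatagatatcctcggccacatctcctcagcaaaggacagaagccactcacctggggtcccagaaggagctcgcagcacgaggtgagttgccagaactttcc
Saa4 (chr7:46732554-46732853, minus strand): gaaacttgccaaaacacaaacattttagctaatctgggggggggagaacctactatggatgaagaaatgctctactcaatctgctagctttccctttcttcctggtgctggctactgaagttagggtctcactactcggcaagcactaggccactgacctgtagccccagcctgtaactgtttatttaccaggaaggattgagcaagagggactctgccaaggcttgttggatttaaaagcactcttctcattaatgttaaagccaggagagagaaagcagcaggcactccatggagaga
The Saa1 and Saa2 windows were identical at 96.0% of aligned bases and held the same match, ATTGCACAA, at positions -183 and -184 from the start, in reverse orientation. The windows of Saa3 and Saa4 held none. The C/EBP motif was found in 11.5% of the 32851 windows in the RefSeq table. The NF-kappaB motif GGACTTTCC (0.3% of windows) was found in none of the 8 member windows in the table, and the STAT motif TTCNNNGAA (8.3%) was found in that of Apcs, as TTCTAGGAA at -244. Orm2 held a C/EBP match, ATTTCCCAA, at -109, and Lcn2 and Hpx held no match; no member window held more than 1 match, so none overlapped. A match describes letters and is not evidence of binding. Each motif was searched as a fixed string, so a window without a match may still hold a site with other letters.

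1 library stood apart from the other 14 in these genes. C247S KI 3 had the highest CPM of all 15 libraries for all 10 members, whereas it was the highest for 9.12% of all genes tested. The 10 members together took 9.47% of its counts, against 1.10% to 1.96% in the other C247S KI libraries, 0.589% to 0.847% in KO and 0.848% to 1.55% in WT. Saa1 and Saa2 alone made up 4.53% of its counts. In 9 of the 10 members, all but Saa4, its gap in CPM to the next C247S KI library exceeded Dixon's limit for 5 values. The same held for 2.34% of all genes tested. The limit assumes normally distributed values and was not applied to log2 CPM, where fewer members may exceed it. In log2 CPM, Saa1 was at 14.59 in C247S KI 3 and at 8.81 to 11.71 in the other C247S KI libraries. The comparisons of the members below are therefore given with and without this library.

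**Figure D1:**
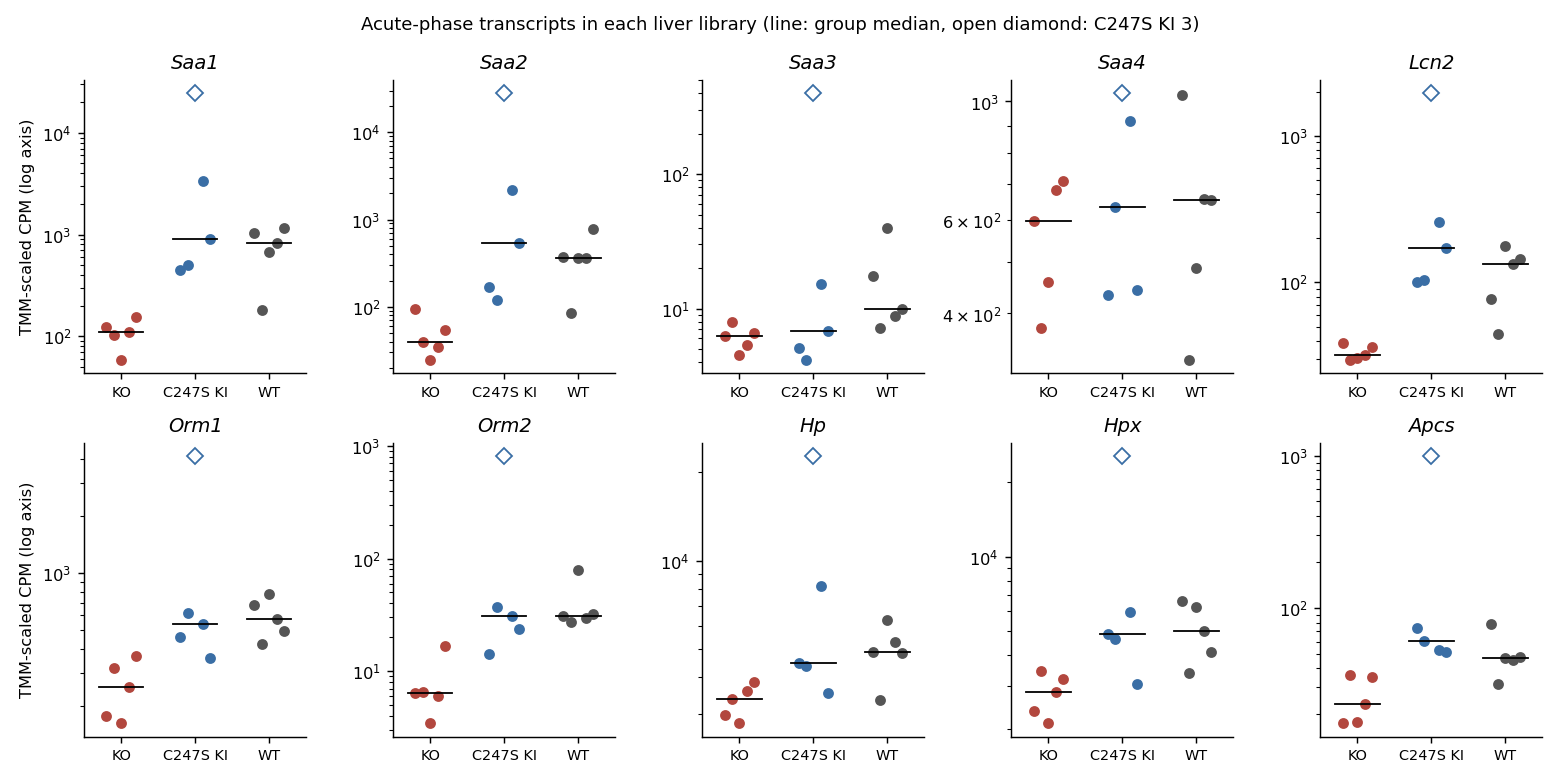
Scaled CPM (log axis) of the 10 genes in each of 15 liver libraries, KO, C247S KI and WT from left to right; points are libraries, lines are group medians and the open diamond is C247S KI 3. The diamond is the highest point of every panel, and the KO points of Saa1, Lcn2, Orm1 and Orm2 all lie below the WT points.

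Saa1 had 123, 102, 58.1, 110 and 153 CPM in KO libraries 1 to 5, 448, 503, 24630, 3357 and 908 CPM in C247S KI libraries 1 to 5, and 1029, 182, 674, 822 and 1154 CPM in WT libraries 1 to 5. All KO values lay below all C247S KI and WT values, and C247S KI 3 was 7.34 times the next C247S KI library. Saa2 had 94.5, 39.3, 24.5, 34.4 and 54.6 CPM in KO, 167, 121, 28070, 2196 and 542 CPM in C247S KI, and 374, 83.9, 359, 367 and 783 CPM in WT. KO was below all C247S KI libraries and overlapped WT through WT 2, the lowest WT library for both genes. The transcripts of Saa1 and Saa2 were identical at 94.4% of aligned bases, so the division of reads between them by the authors' estimation is uncertain. Their summed level, which does not depend on that division, was 82.5 to 217 CPM in KO, 615 to 52700 CPM in C247S KI and 265 to 1937 CPM in WT, with no overlap between KO and either other group.

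Saa3 was the lowest serum amyloid A gene in CPM, with 6.30, 7.95, 4.50, 5.39 and 6.61 CPM in KO, 5.09, 4.14, 400, 15.2 and 6.85 CPM in C247S KI, and 17.6, 7.23, 39.5, 8.83 and 9.97 CPM in WT. Without C247S KI 3 the 3 groups overlapped, and WT 3 and WT 1 were above the rest. Saa4 had 596, 375, 459, 681 and 709 CPM in KO, 433, 635, 1037, 920 and 443 CPM in C247S KI, and 1030, 327, 486, 656 and 653 CPM in WT. Its 3 groups overlapped, and C247S KI 3 was 1.01 times the next highest of all libraries, WT 1 at 1030 CPM. Per annotated transcript length, the ratio of Saa1 to Saa4 was 0.411 to 0.916 in KO, 2.61 to 81.0 in C247S KI and 1.83 to 4.73 in WT, so the KO libraries lay below 1 and all the others above it.

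Lcn2 encodes lipocalin 2, which binds bacterial siderophores and so withholds iron. It had 38.7, 29.5, 30.5, 32.0 and 36.1 CPM in KO, 101, 103, 1954, 260 and 172 CPM in C247S KI, and 77.4, 44.8, 177, 133 and 144 CPM in WT. The KO libraries lay within 1.31 times of each other and below every library of the other groups. Lcn2 is also stored in neutrophil granules: the summed level of 12 neutrophil markers was 36.0 to 345 CPM in KO, 234 to 387 CPM in C247S KI and 119 to 444 CPM in WT, with 303 CPM in C247S KI 3. None of the 12 markers was at 0 in all libraries, 0 of 12 passed the threshold in any comparison, and C247S KI 3 was the highest of all libraries for 0 of 12. Among all genes tested 6.75% passed for KO against WT, 0.0862% for C247S KI against WT and 10.3% for KO against C247S KI. In liver RNA, fewer cells of a type and less RNA per cell cannot be told apart.

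Orm1 and Orm2 encode alpha-1-acid glycoproteins, carriers of basic and neutral compounds in plasma. Orm2 had 6.40, 6.56, 3.44, 6.01 and 16.6 CPM in KO, 14.2, 37.3, 805, 30.7 and 23.6 CPM in C247S KI, and 30.8, 27.3, 78.5, 29.7 and 31.9 CPM in WT. KO lay below WT without overlap and met C247S KI through KO 5 and C247S KI 1. Orm1 ranged from 162 to 369 CPM (median 251) in KO, 358 to 4125 CPM (median 541) in C247S KI and 427 to 783 CPM (median 575) in WT, again with KO below WT. The transcripts of the pair were identical at 91.0% of bases, and their division is uncertain for the same reason as that of Saa1 and Saa2. Orm2 made up 2.03% to 4.31% of the summed CPM of the pair in KO, 2.97% to 16.3% in C247S KI and 4.32% to 9.11% in WT, where 16.3% was C247S KI 3.

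Hp and Hpx encode haptoglobin and hemopexin, which bind free hemoglobin and free heme in plasma. Hp ranged from 2787 to 3848 CPM (median 3372) in KO, 3529 to 22625 CPM (median 4477) in C247S KI and 3350 to 6253 CPM (median 4888) in WT. Hpx ranged from 2115 to 3458 CPM (median 2848) in KO, 3063 to 25427 CPM (median 4887) in C247S KI and 3395 to 6640 CPM (median 4998) in WT. The KO ranges of both genes reached into those of the other groups, and their KO ranges were the narrowest of the list after that of Lcn2. Apcs encodes serum amyloid P, the pentraxin that acts as a major acute-phase protein in mice. It had 17.4, 36.3, 17.7, 23.2 and 35.2 CPM in KO, 73.7, 60.3, 987, 53.2 and 51.3 CPM in C247S KI, and 78.4, 31.5, 46.7, 45.5 and 47.3 CPM in WT. KO lay below all C247S KI libraries and overlapped WT through WT 2.

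Levels can be compared between genes only per transcript length, as TPM (counts divided by annotated transcript length and scaled to the library total). In KO the order of median TPM was Hp (3460), Hpx (2517), Saa4 (419), Orm1 (418), Saa1 (225), Saa2 (86.7), Lcn2 (51.6), Apcs (30.8), Saa3 (15.6) and Orm2 (11.4). In C247S KI it was Hp (5617), Hpx (5464), Saa1 (2463), Saa2 (1607), Orm1 (1011), Saa4 (487), Lcn2 (391), Apcs (110), Orm2 (63.5) and Saa3 (19.8). In WT it was Hp (5941), Hpx (5041), Saa1 (1981), Orm1 (1126), Saa2 (929), Saa4 (473), Lcn2 (218), Apcs (74.6), Orm2 (60.5) and Saa3 (27.9). Saa1 was thus below Saa4 by median in KO and above it in WT. Most neighbours in these orders overlapped in range: in KO only Hp and Hpx, Hpx and Saa4, and Apcs and Saa3 were separate, in C247S KI only Orm1 and Saa4, and in WT only Hpx and Saa1. In C247S KI 3 the order changed, with Saa2 at 58252 TPM and Saa1 at 48452 TPM above Hpx at 20540 TPM and Hp at 20383 TPM. The ratio of Saa2 to Saa1 per length was 1.20 in that library, against 0.323 to 0.811 in KO, 0.248 to 0.684 in the other C247S KI libraries and 0.377 to 0.737 in WT.

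Relative to WT, all 10 members had a lower fitted level in KO, but none passed the threshold of an adjusted p of 0.05 in edgeR's quasi-likelihood fit of all 15 libraries (0 of 10; 6.75% of all genes tested were called, 4.19% as lower). Saa1 was 7.07-fold lower, with a log2 fold change of -2.82 (SE 0.90, adjusted p = 0.0671 in edgeR), and Saa2 was 7.95-fold lower, at -2.99 (SE 1.13, adjusted p = 0.117). Each SE of a fold change here is approximate: the size of the log2 fold change divided by the square root of edgeR's F statistic. Orm2 was at -2.35 (SE 0.93), Lcn2 at -1.79 (SE 0.67), Saa3 at -1.43 (SE 1.04), Orm1 at -1.21 (SE 0.54), Apcs at -0.94 (SE 0.70), Hpx at -0.86 (SE 0.44), Hp at -0.57 (SE 0.39) and Saa4 at -0.16 (SE 0.30). The median over the members was -1.32, against -0.01 over all genes tested. All KO libraries lay below all WT libraries for 4 of the 10 (Saa1, Lcn2, Orm1 and Orm2), against 5.09% of all genes tested.

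The 3 groups share 1 estimate of the spread in this fit, and C247S KI 3 widened it: without that library the log2 fold changes of KO against WT were the same to within 0.01 while the standard errors shrank. The SE of Lcn2 was then 0.32 in place of 0.67 and that of Apcs 0.24 in place of 0.70. Without it 8 of 10 members were lower in KO past the threshold (5.43% of genes tested were called lower). By edgeR adjusted p these were Orm2 (0.00264), Lcn2 (0.00336), Orm1 (0.00492), Saa1 (0.00560), Saa2 (0.0174), Hpx (0.0224), Apcs (0.0250) and Saa3 (0.0495). Hp (0.107) and Saa4 (0.774) did not pass. When only KO and WT libraries were fitted, 9 of 10 passed, all but Saa4 (5.55% of genes called lower). In DESeq2 with all libraries 1 of 10 passed, Saa1 (adjusted p = 0.0412), while 4 of 10 had no adjusted p. Over all genes DESeq2 called 1493. At an unadjusted p of 0.05 in edgeR's fit of all libraries 5 of 10 lay below the threshold, as did 23.3% of all genes tested. Leaving out C247S KI 1 in place of C247S KI 3 gave 1 of 10 by adjusted p, again Saa1, and 926 genes over all.

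**Figure D2:**
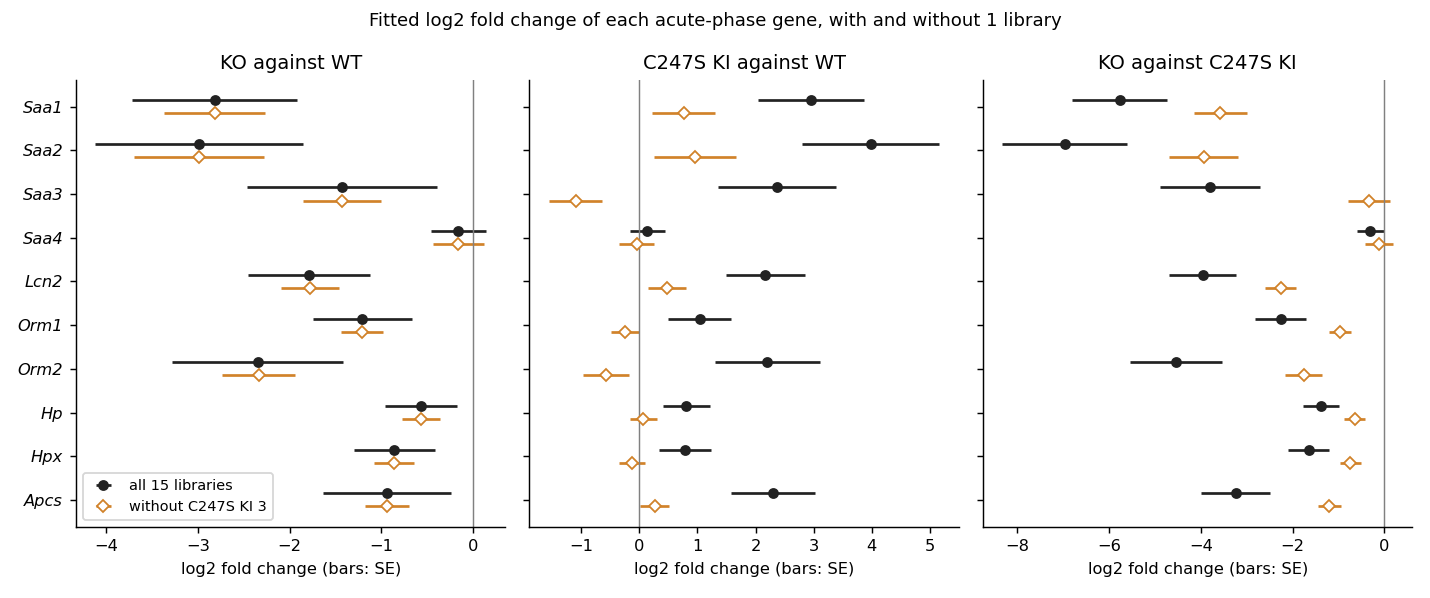
Fitted log2 fold change of each gene (horizontal axis) for KO against WT, C247S KI against WT and KO against C247S KI. Bars are approximate standard errors derived from edgeR's F statistic. Filled circles use all 15 libraries and open diamonds leave out C247S KI 3. For KO against WT the circle and the diamond coincide and only the bar shortens. For C247S KI against WT each diamond lies nearer 0 than its circle, between -1.09 for Saa3 and 0.96 for Saa2.

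Relative to WT, 0 of 10 members passed the threshold in C247S KI (0.0862% of all genes tested were called, and the fit made few calls of any kind). In edgeR's fit of all libraries the log2 fold change was 3.98 for Saa2 (SE 1.18, adjusted p = 0.316), 2.95 for Saa1 (SE 0.91, adjusted p = 0.323), 2.30 for Apcs (SE 0.72, adjusted p = 0.330) and 2.17 for Lcn2 (SE 0.68, adjusted p = 0.330). Without C247S KI 3 these came to 0.96, 0.77, 0.27 and 0.48, and edgeR again called 0 of 10 (0.0213% of genes called lower and 0.0852% higher). Saa3, Orm1, Orm2, Saa4 and Hpx changed sign, to -1.09 for Saa3 (SE 0.46), -0.57 for Orm2, -0.25 for Orm1, -0.12 for Hpx and -0.04 for Saa4. The median over the members was 2.18 with that library and 0.01 without it. At an unadjusted p of 0.05 in edgeR's fit of all libraries 6 of 10 lay below the threshold, as did 9.85% of all genes tested. DESeq2 called 0 of 10, with 4 of 10 lacking an adjusted p, and 65 genes over all. The high C247S KI means thus rested mainly on 1 library. Saa1 averaged 5969 ± 10501 CPM in C247S KI (SD, n = 5) and 1304 ± 1384 CPM without C247S KI 3 (n = 4). In WT it averaged 772 ± 378 CPM (SD, n = 5). For Saa1 C247S KI 4, at 3357 CPM, also lay above every WT library (at most 1154 CPM). The same held for Saa2 (2196 against 783 CPM), Lcn2 (260 against 177 CPM) and Hp (8179 against 6253 CPM), and not for the other members.

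Relative to C247S KI, 9 of 10 members fell in KO, all but Saa4 (5.85% of all genes tested were called lower). The log2 fold change was -6.97 for Saa2 (SE 1.36, edgeR adjusted p = 0.00397), -5.77 for Saa1 (SE 1.03, adjusted p = 0.00233), -4.54 for Orm2 (SE 1.01, adjusted p = 0.00921) and -3.96 for Lcn2 (SE 0.73, adjusted p = 0.00287). Without C247S KI 3, 7 of 10 fell (8.81% of genes called lower), and the sizes were smaller: -3.94 for Saa2, -3.58 for Saa1, -2.26 for Lcn2, -1.76 for Orm2, -1.20 for Apcs, -0.96 for Orm1 and -0.74 for Hpx. Saa3 was then at -0.34 (edgeR adjusted p = 0.647) and Hp at -0.64 (adjusted p = 0.0638). The median over the members was -3.52 with that library and -1.08 without it, against -0.03 over all genes tested in both fits. KO lay below every C247S KI library for Saa1, Saa2, Lcn2 and Apcs (4 of 10; 4.94% of genes tested). Leaving out any 1 KO library left 6 of 10 members past the threshold, while 784 to 1310 genes passed over all. The fit of only the KO and C247S KI libraries gave 6 of 10 (5.53% of genes called lower), and Saa3, Hp and Hpx no longer passed. DESeq2 called 5 of the 6 members to which it gave an adjusted p, and 1898 genes over all. This comparison and that of KO with WT share the KO libraries, so their directions are not independent.

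Saa4 was at -0.30 (SE 0.30, edgeR adjusted p = 0.544) for KO against C247S KI and at -0.11 without C247S KI 3. It stood outside every set of members that passed, in all the fits tried.

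The spread within groups also set the members apart from most genes. The standard deviation of log2 CPM around the group means was 2.02 for Saa2, 1.67 for Saa3, 1.56 for Saa1 and 1.45 for Orm2, against a median of 0.28 over all genes tested. Among all genes tested Saa2 lay at percentile 99.8, Saa1 at 99.5 and Saa4 at 84.9. With an SD of 0.54, Saa4 was the least variable member when all libraries were used. Without C247S KI 3 Saa2 was at 1.30 (percentile 99.2) and Saa1 at percentile 98.1, while Hp came to 0.36 (68.2) and Orm1 to 0.41 (75.3). Saa4 was then at 0.51 (84.1), above Hp, Hpx (0.37), Orm1 and Apcs (0.44). In KO the highest library was 1.31 times the lowest for Lcn2, 1.38 times for Hp and 2.63 times for Saa1. In WT the same ratio was 3.94 for Lcn2, 1.87 for Hp and 6.36 for Saa1, and it reached 9.33 for Saa2. KO 3 was the lowest of all 15 libraries for 6 of the 10 members, against 3.43% of all genes tested.

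How members varied together from library to library within the groups draws on the same spread that was known when the list was drawn up, so it is given as a description. After each group mean was taken out, Pearson's r between log2 CPM of 2 members had a median of 0.87 over 45 pairs in 15 libraries, and 31 of 45 had a Benjamini-Hochberg adjusted p below 0.05 over the pairs (permutation within groups, 100000 resamples). Leaving out C247S KI 3 gave a median of 0.51 and 10 of 45 pairs, so most of the relation rested on that library; leaving out WT 2 gave 19 pairs. Saa1 and Saa2 had r = 0.98 (rho = 0.95), and r = 0.94 (rho = 0.87) without C247S KI 3. Without C247S KI 3 and KO 3, the libraries farthest from the Saa1 median, r was 0.93.

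Among the 14 remaining libraries, Lcn2 varied with Saa2 (r = 0.84, rho = 0.79) and Saa1 (r = 0.79, rho = 0.71). Orm1 varied with Hpx (r = 0.85, rho = 0.78), Apcs (r = 0.75) and Orm2 (r = 0.74). Hp had r = 0.80 with Hpx and 0.64 with Orm1, and Hpx had r = 0.72 with Apcs. All the relations named so far for the 14 libraries were among the 10 pairs that passed. Hp also had r = 0.77 with Saa1, 0.71 with Saa3, 0.69 with Lcn2 and 0.64 with Saa2, which did not pass. Lower values were 0.08 for Saa2 and Orm1 and -0.02 for Lcn2 and Apcs. Saa4, despite its flat group means, had r = 0.76 (rho = 0.82) with Saa1. The points of each relation share their library, its depth and its mix of cells. For Saa1 with Saa2 and for Orm1 with Orm2, reads had also been divided between similar transcripts. The part of that division in r was not tested.

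**Figure D3:**
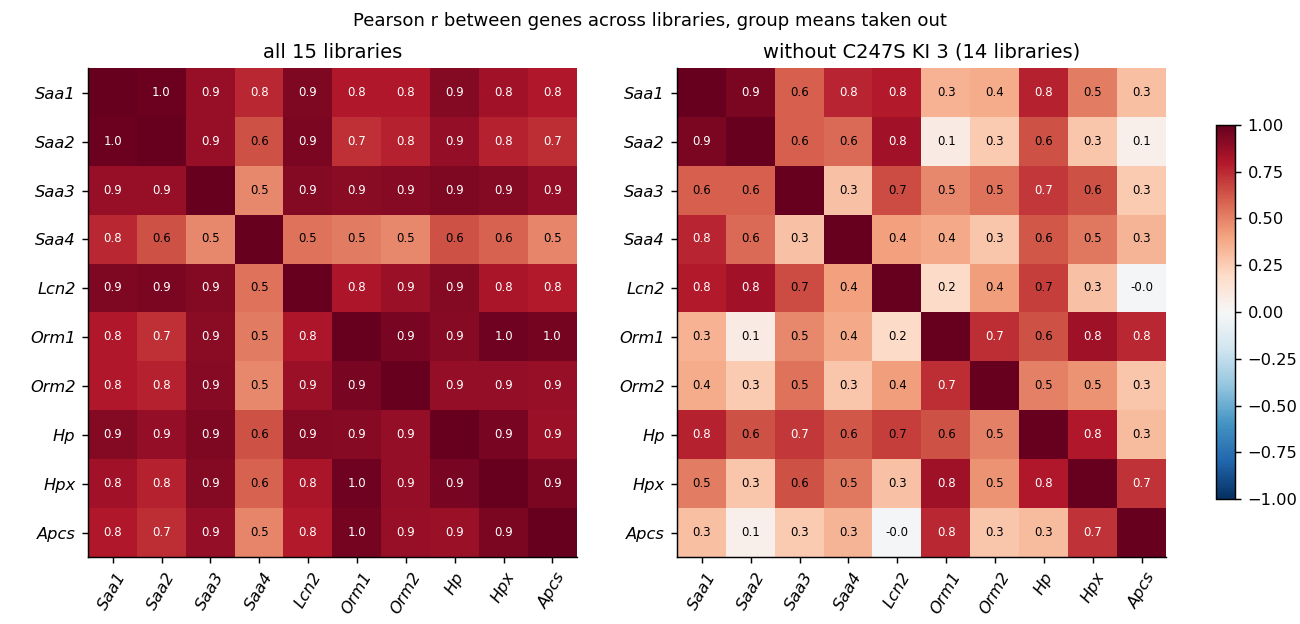
Pearson r between log2 CPM of each pair of genes after group means were taken out, for all 15 libraries (left) and the 14 without C247S KI 3 (right); red is positive and the printed digits are r. The left panel is red throughout, with a median of 0.87, while the right panel keeps high values for Saa1 with Saa2 and Lcn2 and for Orm1 with Hpx, Apcs and Orm2.

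The genes outside the list whose pattern within groups was most like the mean of Saa1 and Saa2 were picked by Pearson's r over the 15 libraries among 13009 genes, as a description. They were Lbp (0.96), Tspan4 (0.92), Serpina3n (0.92), Fgb (0.90), Ggt6 (0.89), AU021092 (0.89), Crybb3 (0.89) and Fga (0.89). Lbp, which hands bacterial lipopolysaccharide to CD14, also came first without C247S KI 3, at r = 0.91. The other names were then different: Nedd4l, Ccdc88a, Ssb, Slc39a14, Gbp2, Nfil3 and Cfap100, at 0.83 to 0.85. Crybb3, a lens crystallin gene, stood out after its values were seen, with 30.3 CPM in C247S KI 3 and 0.240 to 1.29 CPM in the other 14 libraries.

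C247S KI 3 was also above every other library for 20 of 32 other acute-phase proteins that were tested. Examples chosen after their values were seen are Fgl1, a liver-secreted fibrinogen-like protein, at 2222 CPM against at most 626 CPM elsewhere, Itih4 at 9532 against 3589 CPM, Lrg1 at 3900 against 1307 CPM, Lbp at 439 against 172 CPM and the fibrinogen chain Fga at 12757 against 8308 CPM. Of 12 negative acute-phase proteins 2 were highest and 1 was lowest there. Alb, the albumin gene, was at 48458 CPM against a median of 60336 CPM in the other 14. It was below the other C247S KI libraries (55015 to 86060 CPM) and WT (62518 to 74948 CPM), and above KO (28613 to 45294 CPM). Of 38 cytokine pathway genes 2 (5.26%) were highest and 2 lowest in this library, against 9.12% highest and 8.01% lowest of all genes tested. Il6 was below the count filter and at 0.285 CPM in C247S KI 3, with at most 0.120 CPM elsewhere. Stat3 was at 151 CPM in C247S KI 3, within the range of 76.7 to 220 CPM of the other 14. It was below the other C247S KI libraries (156 to 220 CPM). For Kupffer cell and macrophage markers 0 of 12 were highest there.

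Of the 32 other acute-phase proteins, 8 fell and 0 rose in KO relative to WT (10 fell without C247S KI 3), with a median log2 fold change of -0.36. Among all genes tested 4.19% fell and 2.56% rose (5.43% fell without C247S KI 3), with a median of -0.01. The 3 with the lowest p were Il1rn, the interleukin-1 receptor antagonist, at -1.35 (SE 0.16, edgeR adjusted p = 0.000242), Cd14 at -1.98 (SE 0.29, adjusted p = 0.00115) and the metallothionein Mt2 at -2.36 (SE 0.44, adjusted p = 0.00484). Orm3, the paralog of Orm1 and Orm2, was among the 8, at -3.09 (SE 0.61, edgeR adjusted p = 0.00683). The rest of the 8 were Serpina3m, Mt1, Steap4 and Plscr1. In that fit of all libraries Crp, Fga, Fgb, Fgg, Serpina3n, Itih3, Itih4, C3, Hamp, Lbp, Cp and Lrg1 did not pass. Relative to C247S KI 16 of 32 fell in KO (5.85% of all genes tested), and 13 without C247S KI 3 (8.81%), among them Il1rn (-1.44) and Steap4 (-1.71). In C247S KI relative to WT 0 of 32 passed (0.0862% of all genes tested), and Steap4 was at 0.65 (SE 0.20, edgeR adjusted p = 0.330).

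Upstream of these genes, 1 of 38 cytokine pathway genes rose and 4 fell in KO relative to WT, against 2.56% and 4.19% of all genes tested, and the counts without C247S KI 3 were 1 and 4 as well. Lifr, the leukemia inhibitory factor receptor, rose by 1.15 (SE 0.21, edgeR adjusted p = 0.00386), with 164 to 234 CPM in KO and 66.2 to 128 CPM in WT. Stat3 fell by 0.61 (SE 0.14, edgeR adjusted p = 0.0140), with 76.7 to 96.5 CPM in KO and 106 to 171 CPM in WT, and Relb fell by 1.02 (SE 0.23, adjusted p = 0.0136). The other genes that fell were Tlr2 (-0.79), a Toll-like receptor, and Tnfaip3 (-0.91), an inhibitor of NF-kappaB signalling. Relative to C247S KI, 9 of 38 fell and 2 rose in KO (9 and 1 without C247S KI 3; 5.85% and 4.41% of all genes tested with all libraries), among them Stat3 (-1.05), Relb (-1.01) and Lifr (0.99). In C247S KI relative to WT 0 of 38 passed (0.0862% of all genes tested), with Stat3 at 0.44 (edgeR adjusted p = 0.330) and Nfkbiz at 0.63 (adjusted p = 0.465). Of 15 receptors and clearance genes 2 fell in KO relative to WT, the lipid and serum amyloid A receptor Cd36 (-1.99, edgeR adjusted p = 0.00237) and the heme oxygenase Hmox1 (-0.94, adjusted p = 0.0274), and relative to C247S KI the same list gave Hmox1 (-1.34) and Cd36 (-1.63).

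Hepatocyte markers differed between KO and WT mainly through Alb. The summed level of 10 hepatocyte markers was 71704 to 93716 CPM in KO, 81351 to 135586 CPM in C247S KI and 98258 to 119912 CPM in WT. In KO 1 of 10 fell and 0 rose relative to WT, while relative to C247S KI Alb fell and Cyp2e1 rose (2 fell and 1 rose without C247S KI 3). Among all genes tested 4.19% fell and 2.56% rose in KO relative to WT. Relative to C247S KI 5.85% fell and 4.41% rose (8.81% and 7.32% without C247S KI 3). Without Alb the other 9 summed to 43090 to 48523 CPM in KO, 26336 to 50183 CPM in C247S KI and 34086 to 45393 CPM in WT. The median log2 fold change of the 10 was 0.05 for KO against WT, with 6 of 10 positive. The gene that fell against WT was Alb, also counted among the negative acute-phase proteins, which fell by 0.80 (SE 0.21, edgeR adjusted p = 0.0294), with 28613 to 45294 CPM in KO and 62518 to 74948 CPM in WT. The 12 Kupffer cell and macrophage markers summed to 222 to 504 CPM in KO, 209 to 372 CPM in C247S KI and 347 to 612 CPM in WT, with 0 of 12 past the threshold in each comparison. The 6 cholangiocyte markers summed to 25.7 to 38.7 CPM in KO, 46.7 to 123 CPM in C247S KI and 35.3 to 53.8 CPM in WT, and 2 of 6, Sox9 and Spp1, fell in KO relative to C247S KI (3 without C247S KI 3). None of these 3 lists held a gene at 0 in all libraries. Of 5 adipocyte markers 1, Cfd, passed the count filter, and it fell in KO in both comparisons. The 5 summed to 1.26 to 3.52 CPM in KO, 7.87 to 48.6 CPM in C247S KI and 3.57 to 25.5 CPM in WT. This sum was mostly Cfd, which reached 3.21 CPM in KO, 48.3 CPM in C247S KI and 25.2 CPM in WT. Adipoq, Retn, Plin1 and Lep were at most 0.311, 0.324, 0.259 and 0.0517 CPM in any library. The sum therefore describes Cfd and not the adipocyte list as a whole. The part of these differences in the member results was not tested.

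Several members have transcripts annotated with a retained intron, and the share of counts assigned to them differed widely between libraries. For Saa1 the retained-intron transcript took 2.01% to 7.42% of the gene's counts in KO, 1.22% to 27.6% in C247S KI and 1.89% to 29.5% in WT. The high values belonged to C247S KI 5 (27.6%, 95% Wilson interval 27.0% to 28.2%), C247S KI 1 (15.3%, 14.6% to 16.0%) and WT 5 (29.5%, 28.9% to 30.1%). The same libraries led for Saa2, with 21.8% in C247S KI 5, 9.96% in C247S KI 1 and 24.3% in WT 5, and for Lcn2, with 16.8%, 10.6% and 16.3% in these libraries. C247S KI 3 had the lowest share of all libraries for Saa1 (1.22%) and Lcn2 (0.697%). Over the whole library retained-intron transcripts took 3.42% of counts in C247S KI 5, 2.38% in WT 5 and 1.18% to 2.15% in the others. The intervals cover counting error only, and these shares are estimates in which reads of shared exons had been divided among transcripts.

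**Figure D4:**
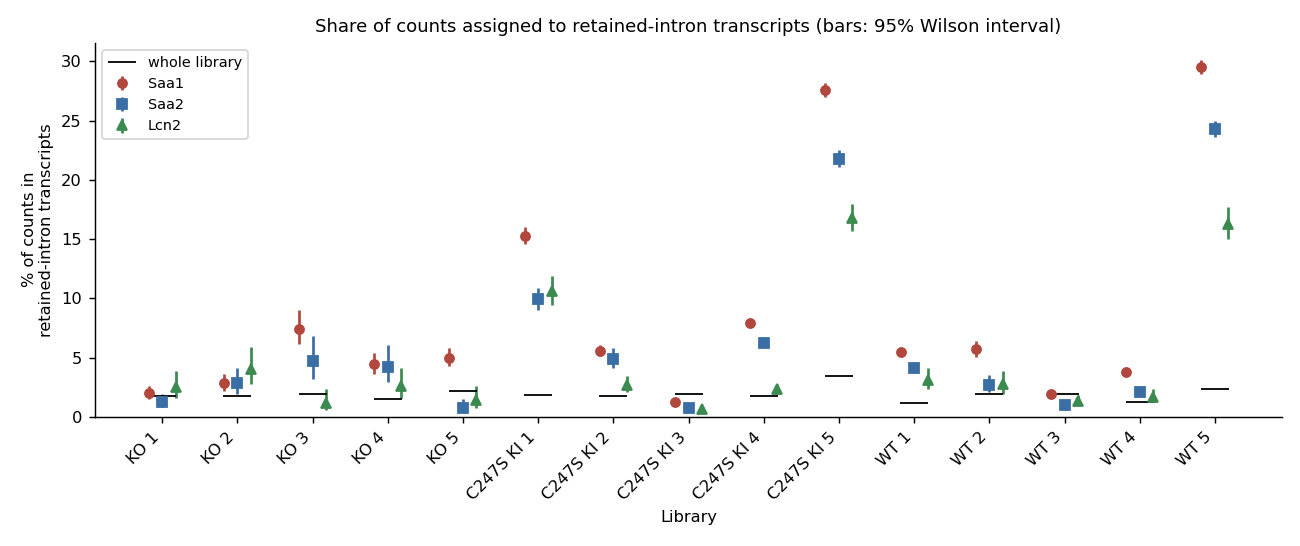
Percent of the counts of Saa1, Saa2 and Lcn2 that were assigned to their retained-intron transcripts in each library, with 95% Wilson intervals, beside the share over the whole library (black dash). C247S KI 5 and WT 5 stand above the rest for all 3 genes, at 27.6% and 29.5% for Saa1, and C247S KI 3 is near the bottom.

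Without that transcript Saa1 had 657 CPM in C247S KI 5 and 814 CPM in WT 5, against 908 CPM and 1154 CPM with it. An alternative chosen after seeing the data summed only the protein-coding transcripts of the members. There 0 of 10 members passed for KO against WT and 0 of 10 for C247S KI against WT. For KO against C247S KI 9 of 10 passed. Over all genes tested 939, 12 and 1428 passed in these 3 comparisons, in that order. Saa2 also had 3 protein-coding transcripts in the table, of which the most abundant in each group took 50.2% to 73.3% of the gene's counts in KO, 43.4% to 60.7% in C247S KI and 45.9% to 66.6% in WT.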

How the data were processed

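Total RNA of mouse liver was sequenced as 15 libraries, 5 per group, with groups and replicate numbers taken from the sample titles. The authors deposited whole-number estimated counts for each transcript. Per the submitters' processing notes the tools were Trimmomatic 0.39, kallisto 0.50.1 and DESeq2, and mm10 is named; which transcripts were quantified is not given there. Reads matching several transcripts had been divided before deposit, so near-identical genes are uncertain. Of 115911 transcripts 114331 (98.64%) matched GENCODE M21 without version, 13 with the same version, and were summed per gene symbol; the rest held 0.366% to 0.459% of counts.

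Genes were filtered with filterByExpr (minimum count 10), scaled by TMM factors and tested in edgeR 4.0.16 (quasi-likelihood, 1 mean per group, all 15 libraries), with Benjamini-Hochberg adjustment over 13916 genes. DESeq2 1.42.0, other scalings and filters, a replicate block, fits of only the groups compared and each library left out were alternatives. CPM are TMM-scaled. Correlations used log2 CPM (prior count 2). The procedures were tested on simulated data. Members, gene lists and tests were chosen with earlier results of these data known. All members are named; per list, up to 3 genes past the threshold with the lowest p, and the 8 genes most like Saa1 and Saa2. Promoter sequences are RefSeq's (GRCm38.p6); 8 of 10 members matched, not Orm1 and Hp. Some genes that this rule names are not reported here.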

Additional observations from a re-analysis of the deposited data

Results flagged for a closer look

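In C247S KI 3 the CPM of 9 members lay farther from the next C247S KI library than Dixon's 95% limit for 5 values allows. These were Saa1 at 24630 CPM, Saa2 at 28070 CPM, Saa3 at 400 CPM, Lcn2 at 1954 CPM, Orm1 at 4125 CPM, Orm2 at 805 CPM, Hp at 22625 CPM, Hpx at 25427 CPM and Apcs at 987 CPM. Orm2 was also flagged in KO 5, at 16.6 CPM against at most 6.56 CPM in the other KO libraries, and in WT 3, at 78.5 CPM against at most 31.9 CPM in the other WT libraries. The share of counts in retained-intron transcripts was far above the other WT libraries in WT 5, at 29.5% for Saa1, 24.3% for Saa2 and 16.3% for Lcn2. If the values of a group are normally distributed, chance flags about 1 in 20 such groups. The limit was applied to CPM and to percent shares and not to log2 values. The members are correlated, so the flags of 1 library are not separate observations.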

How the results depend on the processing

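For KO against WT, where 0 of 10 members passed the threshold, DESeq2 called 1, the fit of only the 2 groups compared called 9, and leaving out 1 library gave 0 to 8; the 8 came without C247S KI 3. For KO against C247S KI, 9 of 10 passed, while DESeq2 gave 5 and the fit of only the 2 groups compared gave 6. The fit with a replicate block gave 4 and leaving out 1 library gave 6 to 9. Over all genes in that comparison, DESeq2 called 1898, the fit of only the 2 groups 1279 and the replicate block 1594. For C247S KI against WT every alternative run gave 0. DESeq2 gave no adjusted p for 4 of the 10 members in each comparison, so its counts are not out of 10. Same-numbered libraries deviated together with r from -0.141 to 0.381, the highest for C247S KI 5 with WT 5. Libraries of different numbers were not compared in this way, so whether the numbers pair the libraries was not tested. Of the pairwise relations 31 of 45 passed, 3 without the 2 libraries farthest from the first gene's median and 10 to 39 with 1 library left out. Leaving out 1 library turned the sign of Saa4 for KO against WT (-0.31 to 0.10, the last without WT 1) and, for C247S KI against WT, of Saa3 (-1.09 to 2.99), Saa4 (-0.04 to 0.39), Orm1 (-0.25 to 1.26), Orm2 (-0.57 to 2.61) and Hpx (-0.12 to 1.0). Over all genes, DESeq2 called 1493 in place of 939 for KO against WT. For C247S KI against WT the count was 12, against 65 in DESeq2, 20 with no count filter and 6 with the replicate block or only the 2 groups. With 1 library left out the counts were 521 to 1259 for KO against WT, 4 to 24 for C247S KI against WT and 784 to 2272, in place of 1427, for KO against C247S KI. The causes were not tested.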
